A study of Mus musculus with 33 samples.

Results

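The genes described here are the 4 Id genes (Id1, Id2, Id3 and Id4) and 3 feedback targets of bone morphogenetic protein (BMP) signaling (Smad6, Smad9 and Bambi), taken by symbol from the count table of a mouse tendon and fibrocartilage induction time course. All 7 were among the 17120 genes of the table, each once. The cultures came from embryonic stem cells (mESCs) derived from ScxGFP mice, in which GFP reports the tendon transcription factor Scx. The mESCs were grown as embryoid bodies with the BMP receptor inhibitor LDN-193189 and, from D2, the Wnt agonist CHIR and, in the study's optimized protocol, the retinoic acid receptor (RAR) inverse agonist AGN 193109, and were collected at D6 as paraxial mesoderm (PM, 3 libraries). GEO's labels give embryoid bodies for PM and monolayer culture for the other 30 libraries, which were grown from D6 on without LDN-193189, with TGFβ1, the hedgehog agonist SAG and FGF2 in both arms, plus either the RARγ agonist CD1530 or AGN 193109 (AGN), with 3 libraries per arm at each of 5 collections, which were D6.25 after 0.25 days of induction, D6.75 after 0.75, D7.5 after 1.5, D8.5 after 2.5 and D10 after 4. The study gave CD1530 at a higher concentration than AGN, and there was no arm with neither ligand, so a difference between the arms cannot be assigned to one of the ligands. The study's methods call the 3 libraries of a group biological replicates but do not say which of its ScxGFP lines each came from.

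BMP ligands bind pairs of type I and type II receptors, which phosphorylate Smad1, Smad5 and Smad9, and these enter the nucleus with Smad4. Id genes are among the most direct targets of that complex and encode helix-loop-helix proteins without a DNA-binding region, which pair with E proteins and keep them from tissue-specific bHLH factors such as Scx or Myod1. Smad6 encodes an inhibitory Smad that acts on the receptors and on Smad1, and Bambi encodes a pseudoreceptor that lacks a kinase; both are induced by the pathway and dampen it. In the limb and axial skeleton BMP signaling is known for promoting cartilage formation.

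Total counts were 17.1 M to 22.8 M per library, apart from AGN D8.5 replicate 1 with 38.1 M. At these depths Id3 was counted 852 to 2662 times per library and Smad9 1 to 8 times in each library of PM, D6.25 and D6.75. The PM libraries held summed levels of 2070 to 2170 CPM (counts per 1 M reads, scaled by TMM) for the 4 pluripotency markers, with Pou5f1 at 701 ± 8.17 CPM (SD, n = 3), and 48.2 to 48.7 CPM for the 6 PM markers, with Tbx6 at 9.56 ± 0.772 and Msgn1 at 3.38 ± 0.607. The library of CD1530 D6.75 replicate 1 stood apart from its group, with a chi-square per gene of 20.3 and 21.5 against its replicates, where all other pairs of replicates had 1.58 to 4.76. Without it 4 of the 7 genes were called between the arms at D6.75, as with it, but with Id3 gained and Smad6 lost, and the log2 differences of CD1530 over AGN of the others were 0.17 for Id2 (adjusted p = 0.0447), -0.74 for Id4 (0.00234) and -0.32 for Bambi (0.00319) by edgeR's quasi-likelihood test. Levels below are of whole cultures, in which fewer cells of a type and less RNA per cell cannot be told apart. Log2 fold changes are given with their SE, and adjusted p-values are from edgeR's quasi-likelihood test over all 17120 genes, with a call at an adjusted p under 0.05.

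Per kilobase of annotated exon, Id3 had the highest level of the 7 genes in PM, at 27.6 CPM per kb, followed by Id4 at 7.1, Id1 at 5.65, Id2 at 5.42, Bambi at 1.8, Smad6 at 1.65 and Smad9 at 0.0244. In AGN at D10 the order by mean level per kb was Id3 (52.7), Id1 (31.9), Id2 (17), Smad6 (5.28), Id4 (4.71), Bambi (2.91) and Smad9 (2.04). In CD1530 at D10 it was Id3 (30.4), Id2 (15.4), Id1 (7.35), Smad6 (6.74), Bambi (2.16), Id4 (1.52) and Smad9 (0.442). The genes differed in how far their group means spread. The highest group mean was 1.93 times the lowest for Id3, 2.54 times for Bambi, 3.98 times for Id2, 4.26 times for Smad6, 5.64 times for Id1 and 11 times for Id4. For Smad9 it was 105 times, but the lowest mean, in CD1530 at D6.75, rests on 2, 3 and 2 counts.

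**Figure D1:**
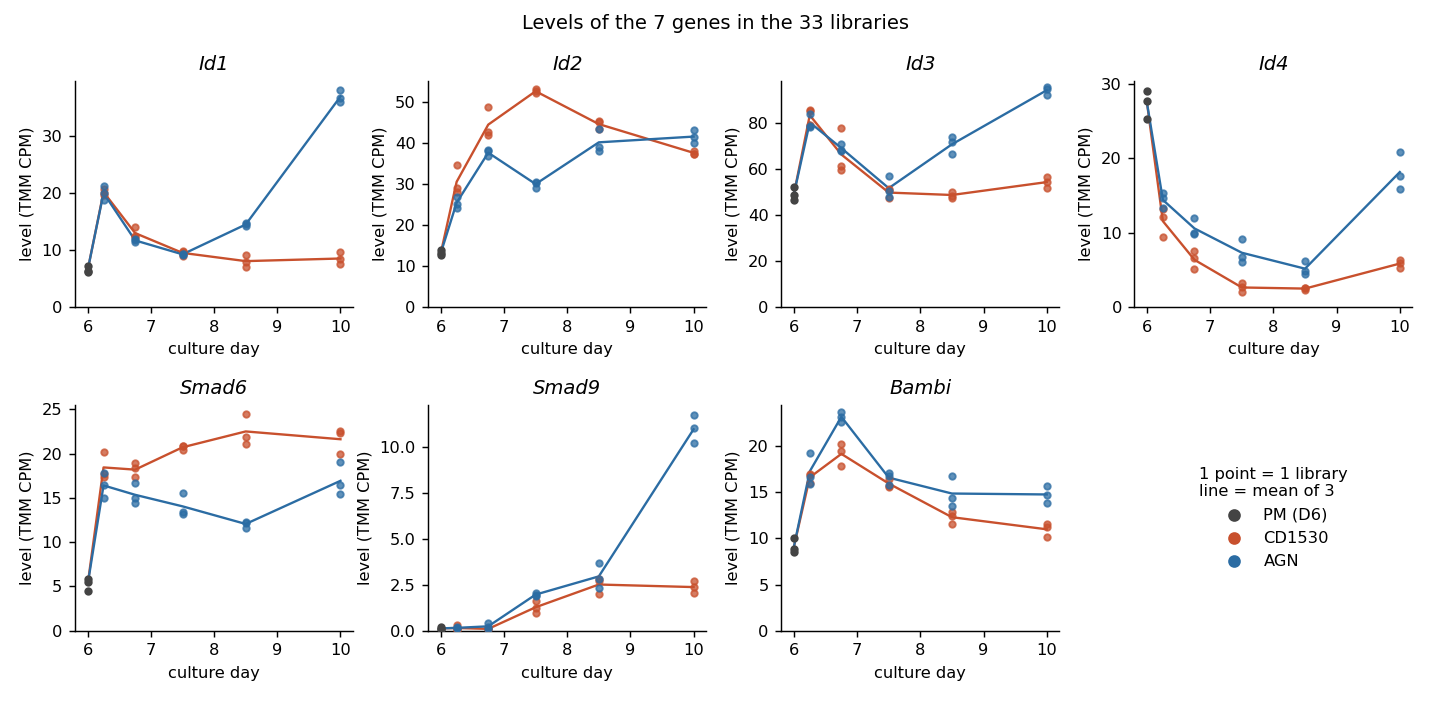
Level of each gene in TMM CPM (vertical axis, from 0) against culture day (horizontal axis), with 1 point per library and lines through the means of 3 libraries; grey is PM, red CD1530 and blue AGN. Id1, Id3, Id4 and Smad9 reach higher levels in AGN than in CD1530 at D10, while Smad6 is higher in CD1530 from D6.75 on.

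Id1 and Id3, the Id genes most often used as readouts of BMP signaling, peaked at D6.25 in both arms, fell to D7.5 and then climbed again in AGN. Id1 was at 6.22, 7.13 and 6.3 CPM in the PM libraries, at 20.8, 19.7 and 20.1 in CD1530 at D6.25, and at 18.8, 20.1 and 21.3 in AGN at D6.25. At D6.75 the CD1530 libraries, at 14.1, 12.5 and 12.3 CPM, lay above those of AGN, at 11.9, 11.8 and 11.4. The log2 difference of 0.15 ± 0.08 was not called there (adjusted p = 0.248). By D7.5 the means were down to 9.52 ± 0.448 (CD1530) and 9.26 ± 0.0322 (AGN) (SD, n = 3), and the libraries of the arms overlapped. At D8.5 the CD1530 libraries were at 7.99, 9.15 and 7.07 CPM and the AGN libraries at 14.6, 14.7 and 14.2, and at D10 they were at 7.48, 9.69 and 8.43 against 38.1, 36.1 and 36.7. All AGN libraries were thus above all CD1530 libraries at D8.5 and D10, with log2 differences of CD1530 over AGN of -0.84 ± 0.09 (adjusted p = 2.1e-10) and -2.12 ± 0.08 (3.32e-24). In order of level, AGN D10 stood apart at the top and both D6.25 groups came next and overlapped, while PM, both D7.5 groups and CD1530 at D8.5 and D10 overlapped with their neighbours at the bottom.

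Id3 had the same peak with a smaller range. From 49.4 ± 2.85 CPM in PM it rose by D6.25 to 83.6 ± 3.57 with CD1530 and 80.4 ± 3.05 with AGN, and came back to 49.9 ± 2.22 and 51.8 ± 4.65 at D7.5. In AGN it then rose to 72.1, 73.9 and 66.7 CPM at D8.5 and to 95.2, 92.2 and 96.0 at D10, whereas CD1530 stayed between 47.6 and 56.7 CPM in its 6 libraries of these days, with no overlap between the arms on either day. The log2 differences were -0.54 ± 0.07 at D8.5 (adjusted p = 4.56e-08) and -0.79 ± 0.07 at D10 (2.56e-12). Within CD1530 the D10 libraries (54.7, 52.0 and 56.7 CPM) lay above those of D8.5 (47.6, 48.6 and 50.3). That step, 0.16 ± 0.07, was not called (0.0586). It was called with DESeq2 (0.028), with its size factors in edgeR (0.026), with only the compared groups fitted (0.000626) and without CD1530 D10 replicate 2 (0.0444). At D6.75 the CD1530 libraries were at 78.0, 61.6 and 59.8 CPM around AGN's 68.1 to 71.2, and the difference of -0.06 ± 0.07 was not called. Without CD1530 replicate 1, the library that stood apart, it was -0.19 with an adjusted p of 0.00612.

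Id2 differed from the other Id genes in being called higher in CD1530 at the intermediate times. Starting at 13.2 ± 0.626 CPM in PM, its D6.25 means were 30.5 ± 3.63 with CD1530 and 25.4 ± 1.33 with AGN. At D7.5 it was at 52.6, 53.0 and 52.0 CPM in the CD1530 libraries, its highest level in the series, and at 30.2, 29.1 and 30.5 in the AGN libraries. The groups lay far apart, and the log2 difference was 0.81 ± 0.06 (adjusted p = 1.01e-13), after 0.26 ± 0.07 at D6.25 (0.0237) and 0.24 ± 0.06 at D6.75 (0.00411). The D6.25 call was lost without CD1530 replicate 2, with an adjusted p of 0.314, without AGN replicate 1 (0.171) and without AGN replicate 3 (0.103), and the D6.75 call with only the compared groups fitted (0.0915). At D8.5 the libraries overlapped, at 43.3 to 45.2 CPM in CD1530 and 38 to 43.4 in AGN, and the call at 0.15 ± 0.06 (0.0447) was lost in 5 of the 6 fits that left out 1 library, those without CD1530 replicates 1 and 2 (0.114 each), CD1530 replicate 3 (0.0511), AGN replicate 1 (0.158) and AGN replicate 3 (0.151). At D10 the order was turned, with 38.1, 37.2 and 37.3 CPM in CD1530 below 40.0, 41.5 and 43.0 in AGN, and the difference of -0.14 ± 0.06 was not called (0.0645). It was called with DESeq2 (adjusted p = 0.0412), with its size factors in edgeR (0.0332) and with only the compared groups fitted (0.042).

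Id4, which in contrast to its relatives is best known from neural tissue and testis, fell when the others rose. Its level was 27.7, 25.3 and 29.0 CPM in PM and by D6.25 had dropped to 11.5 ± 1.97 with CD1530 and 14.4 ± 0.991 with AGN, and it went on falling in both arms. The lowest levels were 3.27, 2.64 and 1.99 CPM in CD1530 at D7.5 and 2.51, 2.34 and 2.59 at D8.5, which are 44 to 60 counts per library. AGN was at 6.06, 6.74 and 9.08 CPM at D7.5 and at 6.17, 4.79 and 4.5 at D8.5. At D10 it had risen to 5.3, 6.33 and 5.9 CPM in CD1530 and to 20.8, 17.6 and 15.9 in AGN. CD1530 lay below AGN in every library from D6.25 on. The log2 difference was -0.31 ± 0.13 at D6.25 (adjusted p = 0.316, not called), -0.72 ± 0.15 at D6.75 (0.000513), -1.49 ± 0.19 at D7.5 (1.25e-07), -1.10 ± 0.21 at D8.5 (4.7e-05) and -1.63 ± 0.15 at D10 (3.31e-11). Exons of 2 antisense transcript genes, A330033J07Rik and Gm49291, overlap those of Id4 by up to 63 and 108 bases, and whether the counting used strand is not stated.

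Smad6 differed between the arms in the direction opposite to Id1, Id3 and Id4, and was higher in CD1530. It rose from 4.45, 5.86 and 5.55 CPM in PM to D6.25 means of 18.4 ± 1.57 with CD1530 and 16.4 ± 1.4 with AGN. From there it reached 22.5 ± 1.76 CPM in CD1530 at D8.5, while in AGN it declined to 12.1 ± 0.355 and then returned to 16.9 ± 1.89 at D10. The CD1530 libraries of D8.5, at 21.9, 24.5 and 21.1 CPM, all lay above those of AGN, at 11.6, 12.2 and 12.3, a log2 difference of 0.91 ± 0.09 (adjusted p = 2.59e-11). The difference was 0.56 ± 0.09 at D7.5 (2.61e-06) and 0.35 ± 0.09 at D10 (0.00111). At D6.75 it was 0.24 ± 0.09 with an adjusted p of 0.0483, and that call was lost without CD1530 replicate 1 (0.0755) or 3 (0.118) and without AGN replicate 2 (0.139) or 3 (0.186), and with DESeq2 (0.0555).

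Bambi had its maximum later, at D6.75. From 9.13 ± 0.776 CPM in PM it reached 19.1 ± 1.22 with CD1530 and 23.2 ± 0.59 with AGN, and declined by D10 to 11 ± 0.655 (CD1530) and 14.8 ± 0.939 (AGN). At D6.75 the libraries were at 20.2, 17.8 and 19.4 CPM in CD1530 and 23.1, 23.7 and 22.6 in AGN, and at D10 they were at 11.5, 10.2 and 11.2 against 14.7, 15.7 and 13.8, without overlap on either day. The log2 differences were -0.27 ± 0.08 at D6.75 (adjusted p = 0.00697), -0.27 ± 0.09 at D8.5 (0.0102) and -0.42 ± 0.09 at D10 (0.000135). The D8.5 call was lost without CD1530 replicate 1 (0.0675) or AGN replicate 2 (0.0971), and the D6.75 call when only the compared groups were fitted (0.0816). At D6.25 and D7.5 the arms overlapped.

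Smad9, which encodes the receptor-activated Smad also called Smad8, was the gene with the latest onset. PM, both D6.25 groups and both D6.75 groups had 1 to 8 counts per library and overlapped, so no difference among them was detectable at this depth. At D7.5 it was counted 30, 27 and 22 times in CD1530 and 34, 42 and 42 times in AGN. The ratio of summed counts to D6.75, scaled by effective library size, was 12.1 in CD1530 and 8.61 in AGN, with exact 95% intervals of 5.61 to 31.1 and 4.93 to 16.2 that cover counting error only. At D10 the CD1530 libraries were at 2.68, 2.37 and 2.08 CPM and the AGN libraries at 10.2, 11.7 and 11. The groups were clearly apart there, with a log2 difference of -2.20 ± 0.18 (adjusted p = 2.52e-13). Against the 8 counts in PM the ratio was 83.1 in AGN (interval 41.9 to 193) and 18.1 in CD1530 (8.91 to 42.7). At D7.5 the difference of -0.64 ± 0.25 had an adjusted p of 0.0481, and the call was lost in 5 of 6 fits that left out 1 library, without CD1530 replicate 2 (0.104) or 3 (0.247) and without AGN replicate 1 (0.072), 2 (0.0897) or 3 (0.126). At D8.5, with 2.51 ± 0.439 CPM in CD1530 and 2.96 ± 0.692 in AGN, the libraries overlapped and no difference was called (0.421).

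The upstream sequences of the genes called between the arms at both D7.5 and D10 are shown for reference: Id4 and Smad9 were lower in CD1530 and Smad6 higher. The Smad9 call at D7.5 was lost in 5 of 6 fits that left out 1 library. They are the 250 bases before the RefSeq transcription start (GRCm38.p6), 5′ to 3′ in the direction of the gene, at chr13:48260866-48261115 (+ strand) for Id4, chr3:54755332-54755581 (+ strand) for Smad9 and chr9:64022060-64022309 (- strand) for Smad6. Capitals mark GGCGCC, a GC-rich element that BMP Smads can bind.
Id4: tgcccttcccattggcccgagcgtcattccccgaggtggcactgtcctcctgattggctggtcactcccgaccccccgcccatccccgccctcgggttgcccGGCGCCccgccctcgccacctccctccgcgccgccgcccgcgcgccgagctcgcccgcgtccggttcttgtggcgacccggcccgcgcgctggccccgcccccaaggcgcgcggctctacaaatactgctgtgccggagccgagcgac
Smad9: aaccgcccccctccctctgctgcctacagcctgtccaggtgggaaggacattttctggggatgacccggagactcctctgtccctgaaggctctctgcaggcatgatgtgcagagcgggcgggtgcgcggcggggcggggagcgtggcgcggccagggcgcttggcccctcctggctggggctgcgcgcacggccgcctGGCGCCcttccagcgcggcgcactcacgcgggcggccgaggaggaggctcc
Smad6: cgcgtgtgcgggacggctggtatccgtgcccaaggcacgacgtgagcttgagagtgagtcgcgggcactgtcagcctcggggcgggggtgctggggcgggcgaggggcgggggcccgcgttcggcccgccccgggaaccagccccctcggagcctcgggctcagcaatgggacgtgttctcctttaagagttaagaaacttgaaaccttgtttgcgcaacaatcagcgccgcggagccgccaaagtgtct
The motif search covered RefSeq promoters of 5 of the 7 genes. Id1 and Bambi were not among them, so motifs upstream of these genes were not tested. On either strand GGCGCC, which is its own reverse complement, was found upstream of 3 of the 5 (Id2, Id4 and Smad9) and in 9.59% of all 32851 promoters searched over the same 250 bases. In Id4 the match started 148 bases and in Smad9 51 bases before the start. The Smad-binding element CAGAC was found upstream of 1 of the 5 (Id3, with 2 matches) and in 42.2% of all promoters. No window held both motifs, so no matches overlapped, and the Smad6 window held neither. Id2, with GGCGCC, was higher in CD1530 at D7.5 (log2 difference 0.81 ± 0.06). Id3, without GGCGCC, was lower at D10 (-0.79 ± 0.07). A link between motifs and direction was not tested.

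Set against each other at the 5 times, the arms came to differ in more of these genes as induction went on, as did genes in general. At D6.25, 1 of the 7 was called higher in CD1530 (Id2) and 0 lower, where 1.23% of all genes were higher and 0.695% lower. At D6.75, 2 were higher (Id2, Smad6) and 2 lower (Id4, Bambi), against 7.94% and 10% of all genes. At D7.5, 2 were higher (Id2, Smad6) and 2 lower (Id4, Smad9), against 15.2% and 11.8%. At D8.5, 2 were higher (Id2, Smad6) and 4 lower (Id1, Id3, Id4, Bambi), against 20.4% and 19.6%. At D10, 1 was higher (Smad6) and 5 lower (Id1, Id3, Id4, Smad9, Bambi), against 22.7% and 24% of all genes. The median log2 difference over the 7 genes was 0.01, -0.06, -0.06, -0.27 and -0.79 at the successive times, while that over all genes stayed between -0.02 and 0.01. The libraries of the arms did not overlap for 2, 5, 4, 5 and 7 of the 7 genes, against 21.1%, 26.3%, 42.5%, 51.4% and 57.0% of all genes.

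**Figure D2:**
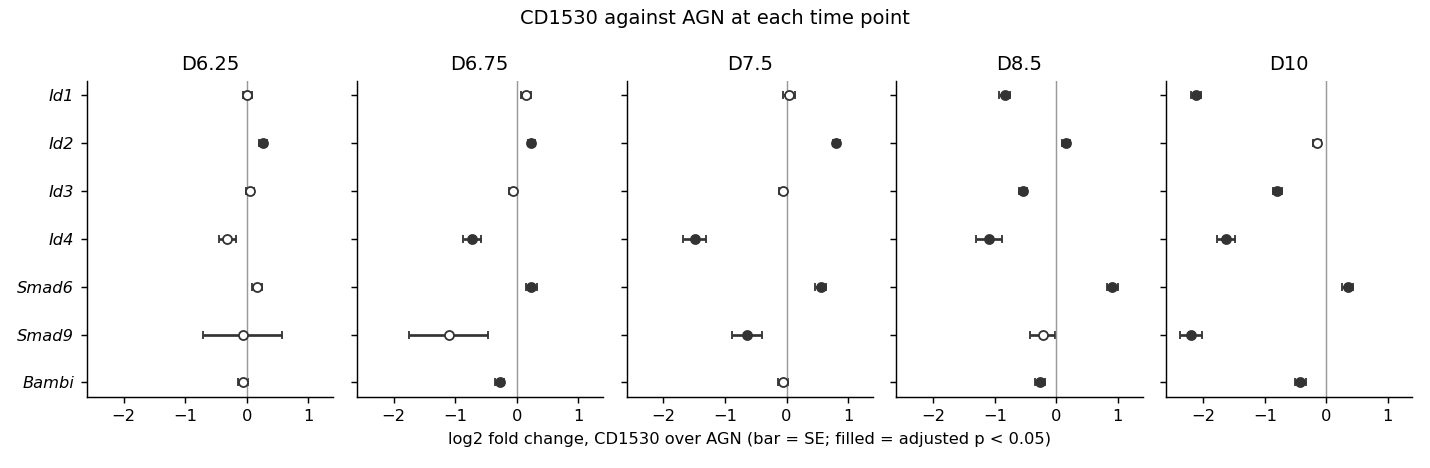
Log2 fold change of CD1530 over AGN (horizontal axis) for each gene (vertical axis) at the 5 times, with SE bars from the fit of 33 libraries; filled points passed an adjusted p of 0.05. Points left of 0 are lower in CD1530; Id1 moves from 0.01 at D6.25 to -2.12 at D10 and Smad9 from -0.07 to -2.20, while Smad6 stays to the right.

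Whether the difference between the arms changed over the 5 times was tested with an interaction of 4 degrees of freedom, which was called for all 7 genes and for 48.8% of all genes. Adjusted p-values were 2.71e-20 for Id1, 4.16e-10 for Id2, 1.42e-09 for Id3, 1.85e-06 for Smad9, 9.67e-06 for Id4, 1.82e-05 for Smad6 and 0.0335 for Bambi. With scaling by library size only, Bambi was not called (0.0758). The Bambi call was lost in 9 of 30 fits that left out 1 library: those without CD1530 D6.25 replicate 1 (0.0521) or 3 (0.0557), AGN D6.25 replicate 2 (0.0592) or 3 (0.0661), CD1530 D7.5 replicate 1 (0.0547), AGN D7.5 replicate 1 (0.0578), CD1530 D10 replicate 2 (0.0804) and AGN D10 replicate 1 (0.0509) or 2 (0.0817).

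Markers of several cell types differed between the arms as well. At D10 all 5 cartilage markers were lower in CD1530, with summed levels of 737 to 751 CPM against 3810 to 3990 in AGN, and all 8 neural markers were higher, with 156 to 168 against 70.5 to 70.9 CPM. Of the 5 tendon markers 3 were lower and 0 higher, with sums of 14600 to 15300 against 17900 to 19000 CPM. Of all genes 22.7% were higher and 24% lower at D10. Of the neural list Neurog2 was at 0 in AGN, and none of the cartilage list was at 0 in either arm. The pluripotency markers summed to 151 to 158 CPM in CD1530 and 249 to 261 in AGN, with 2 of 4 higher in CD1530 and 1 lower (Pou5f1, 26.6 ± 1.59 against 149 ± 3.23 CPM). At D7.5, where Id2 and Smad6 were higher in CD1530, 6 of 7 endothelial markers were higher there too, with sums of 439 to 460 against 269 to 297 CPM and none at 0. Of all genes 15.2% were higher at that time. The endothelial list also had 6 higher at D6.75, where 7.94% of all genes were. At D8.5 it had 5 higher and 1 lower, against 20.4% and 19.6% of all genes, with sums of 276 to 289 against 222 to 237 CPM. At D10 it had 3 higher and 2 lower. The part of these cell types in the results above was not tested.

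Between PM and D6.25, the first 0.25 days, 5 of the 7 genes rose in each arm (Id1, Id2, Id3, Smad6 and Bambi), Id4 fell and Smad9 was not called. Of all genes 34.5% rose and 33.3% fell in CD1530, and 35% and 33.1% in AGN. Both steps share the PM libraries. Smad6 rose by 1.80 ± 0.10 on the log2 scale in CD1530 and 1.63 ± 0.11 in AGN, Id1 by 1.62 ± 0.09 and 1.61 ± 0.09, and Id2 by 1.21 ± 0.07 and 0.94 ± 0.08. Bambi rose by 0.86 ± 0.09 and 0.92 ± 0.09 and Id3 by 0.76 ± 0.07 and 0.70 ± 0.07, whereas the change of Id4 was -1.24 ± 0.12 and -0.92 ± 0.12. The largest adjusted p of these 12 calls was 4.19e-08. The median over the 7 genes was 0.86 and 0.92, against 0.00 over all genes in both arms. Removal of LDN-193189, the labelled change from embryoid bodies to monolayer, the loss of CHIR and the addition of TGFβ1, SAG and FGF2 fell on the same step and cannot be told apart. The same holds for the ligands. CD1530 was added in its arm, and AGN, given before D6 in the optimized protocol, went on in the other arm only.

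In the following step, from D6.25 to D6.75, Id2 and Bambi rose and Id1, Id3 and Id4 fell in both arms, against 25.8% higher and 20.1% lower of all genes in CD1530 and 24.9% and 18.8% in AGN. Id1 changed by -0.64 ± 0.08 in CD1530 and -0.77 ± 0.08 in AGN (adjusted p = 5.95e-09 and 1.3e-10). The Bambi call in CD1530, at 0.21 ± 0.08, was lost without CD1530 D6.25 replicate 2 (0.1) and without CD1530 D6.75 replicate 1 (0.105) or 3 (0.0651). From D6.75 to D7.5 Id1, Id3, Id4 and Bambi fell in both arms and Smad9 rose, while Id2 rose in CD1530 by 0.24 ± 0.06 (0.0015) and changed by -0.33 ± 0.07 in AGN (0.000107). The Id2 call in CD1530 was lost with only the compared groups fitted (0.0629), and without CD1530 D6.75 replicate 1 the change was 0.31 (1.72e-05). This step had 2 higher and 4 lower in CD1530, where 18.7% and 15.5% of all genes were, and 1 higher and 5 lower in AGN, where 14.2% and 16% were. The Id4 call in AGN was lost without AGN D7.5 replicate 1 (0.0572).

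Between D7.5 and D8.5, 1 of the 7 rose (Smad9, by 0.99 ± 0.24) and 3 fell (Id1, Id2 and Bambi) in CD1530, against 18.8% and 17.7% of all genes. The Id1 call, at -0.24 ± 0.10, was lost without CD1530 D7.5 replicate 2 (0.0973) or 3 (0.153) and without CD1530 D8.5 replicate 1 (0.11) or 3 (0.278). In AGN 4 rose (Id1 by 0.65 ± 0.09, Id2 by 0.42 ± 0.06, Id3 by 0.45 ± 0.07 and Smad9 by 0.57 ± 0.21) and 2 fell (Id4 and Smad6), against 21.4% and 20.6%. Without AGN D8.5 replicate 3 the AGN count of calls was 3, with Id4 (adjusted p = 0.0805), Smad6 (0.0555) and Smad9 (0.154) lost. Smad9 was also lost without AGN D7.5 replicate 1 (0.0699) or 2 (0.0632), Id4 without AGN D7.5 replicate 3 (0.227) or AGN D8.5 replicate 2 (0.0713), and Smad6 without AGN D7.5 replicate 3 (0.283) or AGN D8.5 replicate 1 (0.158) or 2 (0.0643). Between D8.5 and D10, 1 gene was called higher in CD1530 (Id4, 1.23 ± 0.21, 6.18e-06) and 1 lower (Id2, -0.25 ± 0.06, 0.00107), where 27.4% of all genes were higher and 29.9% lower. In AGN 5 genes rose and 0 fell, where 29.9% of all genes rose and 29.5% fell. Smad9 rose by 1.90 ± 0.17 (1.6e-12), Id4 by 1.77 ± 0.15 (1.28e-12), Id1 by 1.35 ± 0.07 (2.65e-19), Smad6 by 0.50 ± 0.09 (1.4e-05) and Id3 by 0.41 ± 0.07 (1.45e-06). Id2 (0.05 ± 0.06) and Bambi (-0.01 ± 0.08) were not called in that step. Successive steps share the libraries of the day between them, so their values are not independent.

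**Figure D3:**
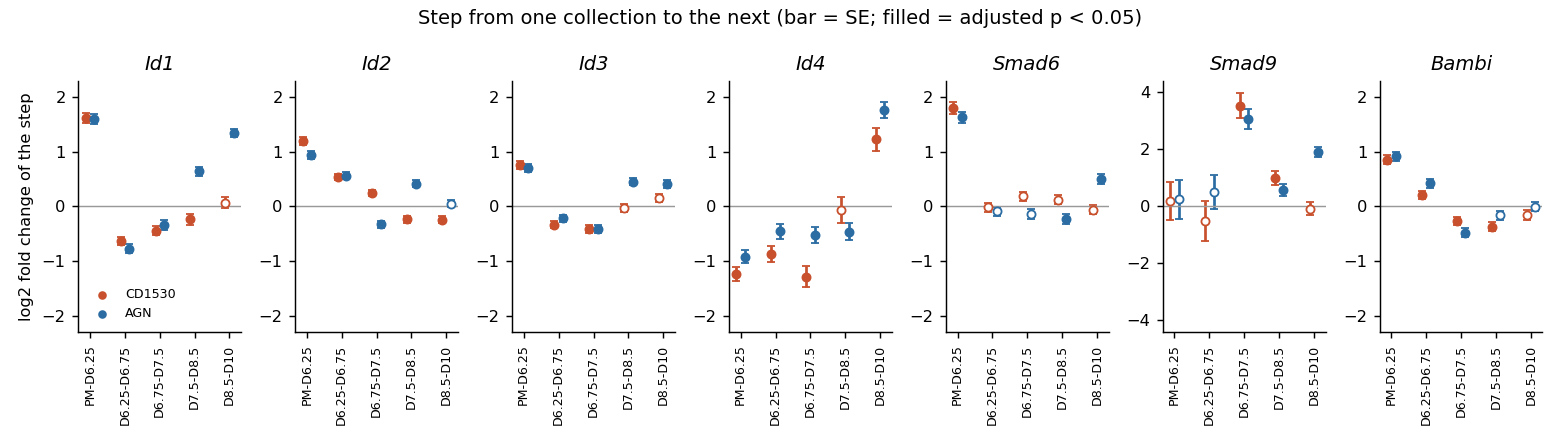
Log2 fold change of each step between successive collections (vertical axis; Smad9 has a wider axis) for CD1530 (red) and AGN (blue), with SE bars; filled points passed an adjusted p of 0.05. From D6.75 to D7.5 Id2 goes up in CD1530 and down in AGN, and in the last step the AGN points lie at 1.35 for Id1 and 1.90 for Smad9, with CD1530 at 0.07 and -0.08.

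Over the whole course from PM to D10, 5 genes were higher and 1 lower in CD1530, against 43.3% and 39.9% of all genes, and 6 were higher and 1 lower in AGN, against 41.6% and 40.4%. Id4 was the gene that fell in both arms, with a log2 change of -2.22 ± 0.14 in CD1530 (adjusted p = 3.03e-16) and -0.59 ± 0.12 in AGN (4.82e-05). Id2 and Smad6 ended well above PM in either arm, Id2 by 1.51 ± 0.07 in CD1530 and 1.65 ± 0.07 in AGN and Smad6 by 2.03 ± 0.10 and 1.68 ± 0.11. Id1 ended 0.38 ± 0.10 above PM in CD1530 (0.000852) and 2.49 ± 0.08 above it in AGN (2.02e-27). Id3 overlapped with PM in CD1530 (0.14 ± 0.07, 0.0635) and was 0.94 ± 0.07 higher in AGN (4.93e-15). Without CD1530 D10 replicate 2 the Id3 change in CD1530 was 0.17 with an adjusted p of 0.0438. Bambi was higher by 0.27 ± 0.09 in CD1530 (0.00968), a call lost with scaling by library size only (0.133), and by 0.69 ± 0.09 in AGN (7.97e-09).

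The counts of pathway genes that follow stand beside the same shares of all genes as above, which were 22.7% higher and 24% lower in CD1530 at D10 and, from PM to D6.25, 34.5% rising in CD1530 and 35% in AGN, with median log2 changes of all genes between -0.02 and 0.00. Among the ligands of the pathway, 3 of 7 measured BMP and GDF genes were higher in CD1530 at D10 and 2 lower, with a median log2 difference of 0.43. Bmp4 had D10 means of 69.7 ± 1.16 CPM with CD1530 and 179 ± 4.01 with AGN, a log2 difference of -1.36 ± 0.05 (adjusted p = 2.34e-25), and it was also lower in CD1530 at D7.5 (-0.60 ± 0.06) and D8.5 (-0.88 ± 0.05). Bmp2 had its peak early, going from 13.8 ± 1.25 CPM in PM to D6.25 means of 80.1 ± 2.04 with CD1530 and 85.6 ± 1.04 with AGN, and ending at 16.0 ± 0.422 and 11.8 ± 1.0. Bmp7 was at 50.1 ± 2.98 and 45.6 ± 3.08 CPM at D10 and was not called there (0.067). Between PM and D6.25, 5 of the 7 ligand genes rose in each arm.

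Of the 10 receptor and co-receptor genes, 2 were higher and 5 lower in CD1530 at D10, with a median difference of -0.07, and 9 of the 10 rose from PM to D6.25 in each arm. The widely used receptors Bmpr1a (-0.01 ± 0.05) and Bmpr2 (0.04 ± 0.12) were not called at D10, and Eng, a co-receptor of endothelial cells, differed by -0.16 ± 0.05 (0.00733). Bmpr1b, a type I receptor of cartilage condensations that was singled out after its values were seen, had D10 means of 4.29 ± 0.45 CPM with CD1530 and 14.9 ± 1.42 with AGN (-1.80 ± 0.13, 3.25e-15). Of the Smads that carry the signal, Smad1 was higher in CD1530 at D10 (0.48 ± 0.05, 1.02e-10), Smad4 lower (-0.14 ± 0.04, 0.00605) and Smad5 not called (0.00 ± 0.05). Of 8 other intracellular inhibitors, 4 were higher and 1 lower in CD1530 at D10, with Skil at 0.22 ± 0.05 (7.98e-05), Pmepa1 at 0.23 ± 0.04 (3.69e-05) and Ski, at 0.08 ± 0.05 (0.162), not called.

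Of 11 secreted BMP antagonists measured, 4 were lower in CD1530 and 0 higher at D6.25. The counts of lower and higher were then 7 and 0 (D6.75), 5 and 2 (D7.5), 7 and 1 (D8.5) and 7 and 2 (D10), with a median log2 difference of -1.23 on the last day. Of all genes 0.695%, 10%, 11.8%, 19.6% and 24% were lower in CD1530 at the 5 successive times. The shares higher were 1.23%, 7.94%, 15.2%, 20.4% and 22.7%. Grem1 was lower in CD1530 at every time, from -0.56 ± 0.07 at D6.25 (4.83e-06) to -1.28 ± 0.08 at D10 (2.77e-14). Chrdl1 averaged 46.5 ± 1.64 CPM with CD1530 and 322 ± 12.6 with AGN at D10 (-2.79 ± 0.05, 1.86e-35), and Twsg1 differed by -0.33 ± 0.05 (5.06e-08). Of 9 other BMP-responsive genes, 2 were higher and 3 lower in CD1530 at D10. Tbx3 was higher (1.65 ± 0.08, 2.26e-20), while Hey1 (-1.39 ± 0.08, 4.58e-18) and Runx2, the osteoblast and hypertrophic cartilage regulator (-1.64 ± 0.10, 1.4e-17), were lower. Dlx5, a homeobox gene of bone and cartilage that was also singled out after its values were seen, averaged 5.03 ± 0.547 CPM with CD1530 and 58.8 ± 0.857 with AGN at D10.

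**Figure D4:**
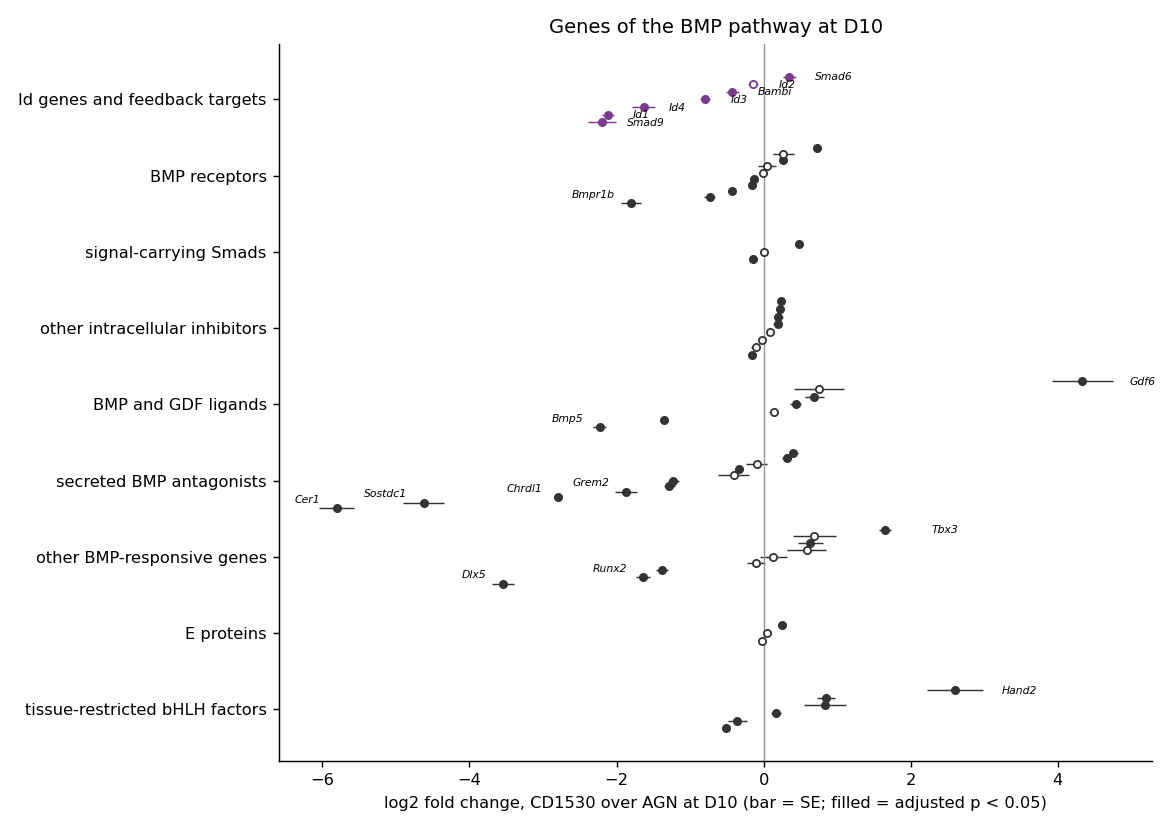
Log2 fold change of CD1530 over AGN at D10 (horizontal axis, SE bars) for the genes of each list (vertical axis), drawn where either arm had a mean of at least 1 CPM; filled points passed an adjusted p of 0.05. Id and feedback genes, in purple, run from -2.20 to 0.35, and names of other genes are shown beyond a difference of 1.5 in either direction.

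Id proteins pair with E proteins, which in turn pair with tissue-restricted bHLH factors. Of the 3 E protein genes, Tcf3 (-0.02 ± 0.03) and Tcf12 (0.05 ± 0.05) were not called at D10 and Tcf4 was higher in CD1530 (0.25 ± 0.04, adjusted p = 3.44e-07). Of 12 measured tissue-restricted bHLH genes, 6 were higher and 3 lower in CD1530 at D10. Scx, the bHLH factor of tendon progenitors, was lower (-0.51 ± 0.04, 1e-14), and Twist1 (0.17 ± 0.06, 0.0289) and Tcf15 (0.85 ± 0.13, 1.1e-06) were higher.

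Across the 11 group means, which are PM and the 2 arms followed over the same times, Id1 and Id3 had a Pearson r of 0.95 on the log2(CPM + 1) scale. Each was among the 3 genes most like the other out of 9949 considered. Id2 and Smad6 had an r of 0.829, Id2 and Id4 of -0.762 and Id4 and Smad6 of -0.65, and the remaining pairs lay between -0.245 and 0.466. Besides Id3, the genes with the patterns most like Id1 were Riok3 (r = 0.955) and Ehd3 (0.939), and besides Id1 those most like Id3 were Rflna (0.936) and Ehd3 (0.935). Those most like Id2 were Nav3 (0.98), Arhgef2 (0.96) and Ncoa7 (0.955), and those most like Id4 were Emc10 (0.955), Lias (0.946) and Atp6ap2 (0.932). For Smad6 they were Prkd1 (0.962), Arl10 (0.961) and Clcn5 (0.961), for Smad9 Polh (0.987), Slc8a1 (0.973) and Stard9 (0.968), and for Bambi Sema6d (0.972), Car4 (0.952) and Pon3 (0.948). With Spearman's rho in place of r, 2 of the 3 genes were kept for Id2 and for Id3, 1 for Id1 and for Bambi, and 0 for Id4, Smad6 and Smad9. With r over the 33 libraries, 2 of the 3 were kept for Id1, Id3, Id4, Smad9 and Bambi, and 1 for Id2 and for Smad6.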

How the data were processed

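RNA was measured by bulk RNA sequencing in 33 cultures of 11 groups with 3 replicates each. The authors deposited raw counts per gene; their reads were aligned with STAR to GRCm38 and counted with featureCounts, and the annotation release, strand setting and treatment of reads with several alignments are not given in the sources used here. Groups were taken from the GEO labels. The tests were run with edgeR 4.0.16 under R 4.3.3, as 1 fit of all libraries with a mean per group, TMM normalization and robust quasi-likelihood F tests, adjusted by Benjamini-Hochberg over 17120 genes in each of 18 contrasts, with a residual of 22 degrees of freedom. The low-count filter removed 0 genes. The fit was tested on simulated data. Levels are TMM CPM. The alternatives were DESeq2 1.42.0, other scalings, filters and tests, a replicate block, and leaving out each library. Descriptive values came from Python 3.11.15 and scipy 1.17.1. Exon lengths and overlaps were taken from GENCODE M21, promoters from RefSeq.

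The 7 genes, the pathway and marker lists and the tests were chosen with earlier results of these data known. The genes named from a pathway list were the 3 with the largest mean CPM over all libraries, apart from the features marked as singled out after their values were seen. Those most like a member were the 3 of highest r among genes with a mean of at least 10 CPM, without predicted genes. Lists that lacked a gene in the table were the ligands, antagonists, bHLH factors and muscle markers. P-values cover the spread between cultures of a group and counting intervals cover counting error only.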

Additional observations from a re-analysis of the deposited data

Results flagged for a closer look

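A change of the gap between the arms over the 5 times was called for each of the 7 genes, by the interaction of arm and time with 4 degrees of freedom in edgeR's quasi-likelihood fit. The Bambi call was lost in 9 of 30 fits that left out 1 library and with scaling by library size only (adjusted p = 0.0758). The adjusted p was 2.71e-20 for Id1, 4.16e-10 for Id2, 1.42e-09 for Id3, 1.85e-06 for Smad9, 9.67e-06 for Id4, 1.82e-05 for Smad6 and 0.0335 for Bambi, in a test that called 48.8% of all genes. Id1 went from a log2 difference of 0.01 ± 0.07 at D6.25 to -2.12 ± 0.08 at D10 and was lower in all 3 CD1530 libraries at D8.5 and D10. Id2 went from 0.81 ± 0.06 at D7.5 to -0.14 ± 0.06 at D10. Smad6 was largest at D8.5 (0.91 ± 0.09).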

How the results depend on the processing

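Of 92 results of single genes that were called, 76 were called under every alternative and 16 were not called under at least 1; of 34 that were not called, 28 were called under none. The 15 results that changed sign under an alternative had no call. The number of the 7 genes called at D10 was 6 in every fit that left out a library. At D6.75 it was 4, against 1 when only the compared groups were fitted; the comparison holds CD1530 D6.75 replicate 1, which stood apart from its group, and the cause was not tested. Leaving out 1 library gave 0 to 1 calls at D6.25 and 3 to 5 from D7.5 to D8.5 in AGN. Scaling by library size only turned Id1 from D8.5 to D10 in CD1530 to -0.02097 and Id2 in AGN over the same step to -0.04794, and it lowered every log2 change from PM to D10 by 0.11 in CD1530 and 0.15 in AGN and every change from D8.5 to D10 in AGN by 0.10, the difference of the groups' mean log2 TMM factors. Bambi from D8.5 to D10 in AGN was 0.02733 with DESeq2 size factors and 0.0277 with DESeq2, and the cause was not tested.

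Ranges over the fits that left out 1 library, for the uncalled log2 values that changed sign, were as follows. Between the arms, Id1 at D6.25 ran from -0.0337 to 0.05737, Smad9 at D6.25 from -1.137 to 0.3968, Bambi at D6.25 from -0.1112 to 0.02956, Id3 at D6.75 from -0.1906 to 0.0116 and Id3 at D7.5 from -0.1087 to 0.01633. In CD1530, Smad9 from PM to D6.25 ran from -0.8833 to 0.6501, Smad6 from D6.25 to D6.75 from -0.06301 to 0.05429, Smad9 over that step from -0.9825 to 0.5508, and Id4 from D7.5 to D8.5 from -0.2422 to 0.1027. From D8.5 to D10 in CD1530, Id1 ran from -0.02859 to 0.1748, Smad6 from -0.1038 to 0.00546 and Smad9 from -0.2162 to 0.01624. In AGN, Smad9 from D6.25 to D6.75 ran from -0.1842 to 0.9527 and Bambi from D8.5 to D10 from -0.05445 to 0.07385. For Smad9 the ranges up to D6.75 rest on 1 to 8 counts per library.

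No consistent pairing by replicate number was seen. The check cannot tell whether same-numbered libraries came from the same line or differentiation. In 0 of 17 contrasts did every pair of same-numbered libraries deviate together with a correlation above 0.1 (range -0.154 to 0.229), and 11 of 33 libraries correlated best with their own number. With the replicate block the number of genes called between the arms was 6 on D10 and 3 on both D6.75 and D7.5. Smad6 at D6.75 (adjusted p = 0.0555), Smad9 at D7.5 (0.0568), Id1 from D7.5 to D8.5 in CD1530 (0.0512) and Smad6 over that step in AGN (0.0552) were not called with the block, and no other call of a single gene changed.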
